A study of Mus musculus with 2 samples.

Results

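The genes described here are the heat shock proteins and cochaperones, taken as every gene whose symbol starts with Hspa, Hspb, Hsp90, Hsph, Hspd, Hspe or Dnaj. Of 32285 genes in the count matrices, 75 matched these prefixes, and 73 remained after Hspbap1 and Hspbp1 had been left out. UMIs were found for 71 of the 73, Dnajb8 and Dnajc5g had none, 6 had between 1 and 19, and 65 had at least 20. The 10 most abundant genes held 78.7% of all chaperone UMIs, led by Hsp90ab1 (19.8%), Hspa8 (11.8%) and Hspa5 (8.65%).

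The study profiled muscle stem cells (MuSCs) from the plantaris muscle by 3′ droplet single-cell RNA sequencing. It had 1 library after sham surgery and 1 library 5 days after mechanical overload (MOV) surgery. In MOV, part of the gastrocnemius tendon and part of the soleus muscle were excised, which gives the plantaris a growth stimulus. Mice of both groups carried Pax7rtTA and TRE-H2B-GFP, in which the Pax7 locus drives the doxycycline-dependent activator of a nuclear GFP, were 26 weeks old, and had drunk doxycycline at 2.0 mg/ml for 2 weeks. The labels speak of a single mouse per library and the study's methods of several mice, and the sort is given as VCAM-positive cells without CD31, CD45 and SCA1 in the methods and by GFP in the series text. With 1 library per condition there was no replicate check, no test was made, and each MOV to sham ratio compares 2 libraries. Intervals are exact at 95% and cover counting error only.

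Heat shock proteins are molecular chaperones that bind unfolded protein chains. Hsp70 proteins (the Hspa genes) and Hsp90 proteins work by ATP hydrolysis in the cytosol, with Hspa5 and Hsp90b1 as their counterparts in the endoplasmic reticulum (ER). In mitochondria, Hspa9 is the Hsp70, while Hspd1 (Hsp60) and its partner Hspe1 belong to another chaperone class. J-domain proteins (the Dnaj genes) deliver clients to Hsp70 and start its ATP hydrolysis, and Hsph1 exchanges its nucleotide. The small heat shock proteins (most of the Hspb genes) hold unfolded proteins without ATP, several of them on the myofibrils of striated muscle. Heat shock factor 1 induces part of the cytosolic set through heat shock elements, and the unfolded protein response induces the ER set through ER stress elements.

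The sequences below are stretches near the starts of the genes on which the results turn, with 20 bases on each side of the motif. They were cut from RefSeq windows of GRCm38.p6 that reach 250 bases before a RefSeq start of the gene, are written 5′ to 3′ on the gene's own strand, and hold the motif in capitals. The first set shows heat shock elements (GAANNTTC or TTCNNGAA, and for Hspe1 a longer run of such units). They lie at chr17:34972233-34972280 (minus strand, Hspa1a), chr17:34959315-34959362 (minus strand, Hspa1b), chr5:149636342-149636389 (minus strand, Hsph1), chr1:55088039-55088096 (plus strand, Hspe1) and chr7:30553161-30553208 (plus strand, Hspb6).
Hspa1a: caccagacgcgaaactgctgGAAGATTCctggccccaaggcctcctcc
Hspa1b: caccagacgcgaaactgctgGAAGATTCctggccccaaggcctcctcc
Hsph1: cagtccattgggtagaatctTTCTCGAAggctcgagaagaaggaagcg
Hspe1: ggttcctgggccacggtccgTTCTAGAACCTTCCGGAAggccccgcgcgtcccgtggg
Hspb6: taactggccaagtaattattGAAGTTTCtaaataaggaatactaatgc

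The second set shows ER stress elements (CCAAT and CCACG with 9 bases between them, or the reverse complement) of the ER genes Hspa5 at chr2:34772005-34772063 (plus strand) and Dnajc3 at chr14:118937807-118937865 (plus strand).
Hspa5: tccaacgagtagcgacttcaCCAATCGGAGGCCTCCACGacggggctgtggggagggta
Dnajc3: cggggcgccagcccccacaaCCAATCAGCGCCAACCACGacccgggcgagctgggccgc

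The Hspa1a and Hspa1b stretches are the same in all letters shown, and 247 of the 250 bases upstream of the paired genes were identical (98.8%). Hspa1a (chr17:34969190-34972156) and Hspa1b (chr17:34956436-34959238) are near-identical neighbours on the minus strand of chromosome 17, so the division of UMIs between them is uncertain, and their summed level is the safer reading. The Hspe1 stretch lies inside the annotated span of Hspd1 (chr1:55077835-55088243, minus strand), which overlaps the start of Hspe1 (chr1:55088132-55091307, plus strand). RefSeq and GENCODE starts differ for some genes: by the GENCODE spans, the Hspa5 stretch lies within Hspa5 (chr2:34771970-34777547), the motif of Hsph1 within Hsph1 (chr5:149614287-149636376), and the Hspb6 stretch, taken from the window of an alternative RefSeq start, within Hspb6 (chr7:30552178-30555443). A 2-unit heat shock element occurred in the window of 16 of the 58 chaperone genes found in the RefSeq table, against 15.1% of all 32851 windows and 17.0% of all genes. Of the 9 genes in the table listed as heat-inducible, 7 held one (Hspa1a, Hspa1b, Dnaja1, Dnajb4, Hsph1, Hspb1 and Hspb8). The 3-unit element occurred in Dnajb6, Hspd1, Hspe1 and Hsph1 and in 0.603% of all windows, and the ER stress element in Hspa5, Hsp90b1 and Dnajc3 and in 0.119%. A match describes the letters of the window only.

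Cells were grouped by summed marker UMIs, none of them from chaperone genes. After quality filters 734 sham and 2985 MOV barcodes were kept, of which 113 and 1548 were MuSCs. Among the MuSCs, 18 sham and 113 MOV cells were immediate-early-high (at least 5000 CPM, the UMIs of a gene or list in every 1000000 UMIs, of Fos, Fosb, Egr1, Jun, Junb, Atf3 and Ier2), 53 and 298 carried quiescence markers, and 35 and 436 fell in no marked state. Only 7 sham cells were cycling against 604 MOV cells, and 97 matrix-producing MuSCs, 120 early myocytes and 26 late myocytes were compared within MOV only. Outside the MuSCs there were 501 sham and 56 MOV fibre droplets, which carried adult fibre transcripts, and 25 and 378 Pdgfra cells. The latter were set by Pdgfra UMIs and by more UMIs of stromal than of MuSC markers. Their stromal marker Dcn stood at 20206 CPM in sham and 3655 CPM in MOV, so the 2 groups were not alike. Pax7 stood at 119 CPM in sham and 74.3 CPM in MOV MuSCs, Myh4 at 3624 and 526 CPM in fibre droplets, and Pdgfra at 411 and 146 CPM in Pdgfra cells, but these genes formed the groups and do not test them.

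Depth and shared barcodes limit the comparisons. The median MuSC held 7917 UMIs in sham and 22490 in MOV, and the median fibre droplet 3772 and 961.5. A total of 44 barcodes occurred in both libraries, and the shallower copy, found in MOV for 39 of them, held 0.348% to 4.32% of the UMIs of the deeper one. Of the 56 MOV fibre droplets, 20 were such shallower copies of sham fibre droplets, and the 3 deepest held 38.8% of the group's UMIs together with 263 of its 271 Myog UMIs. With all shallower copies left out, each of the 20 comparisons kept its number of genes past 2-fold, and of 299 such ratios 0 reversed and 1 fell below 2-fold. Levels of a group are its summed UMIs in CPM, which cannot by themselves separate fewer expressing cells from less RNA in each. The assay counts transcripts at the 3′ end, so levels were not divided by length.

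**Figure D1:**
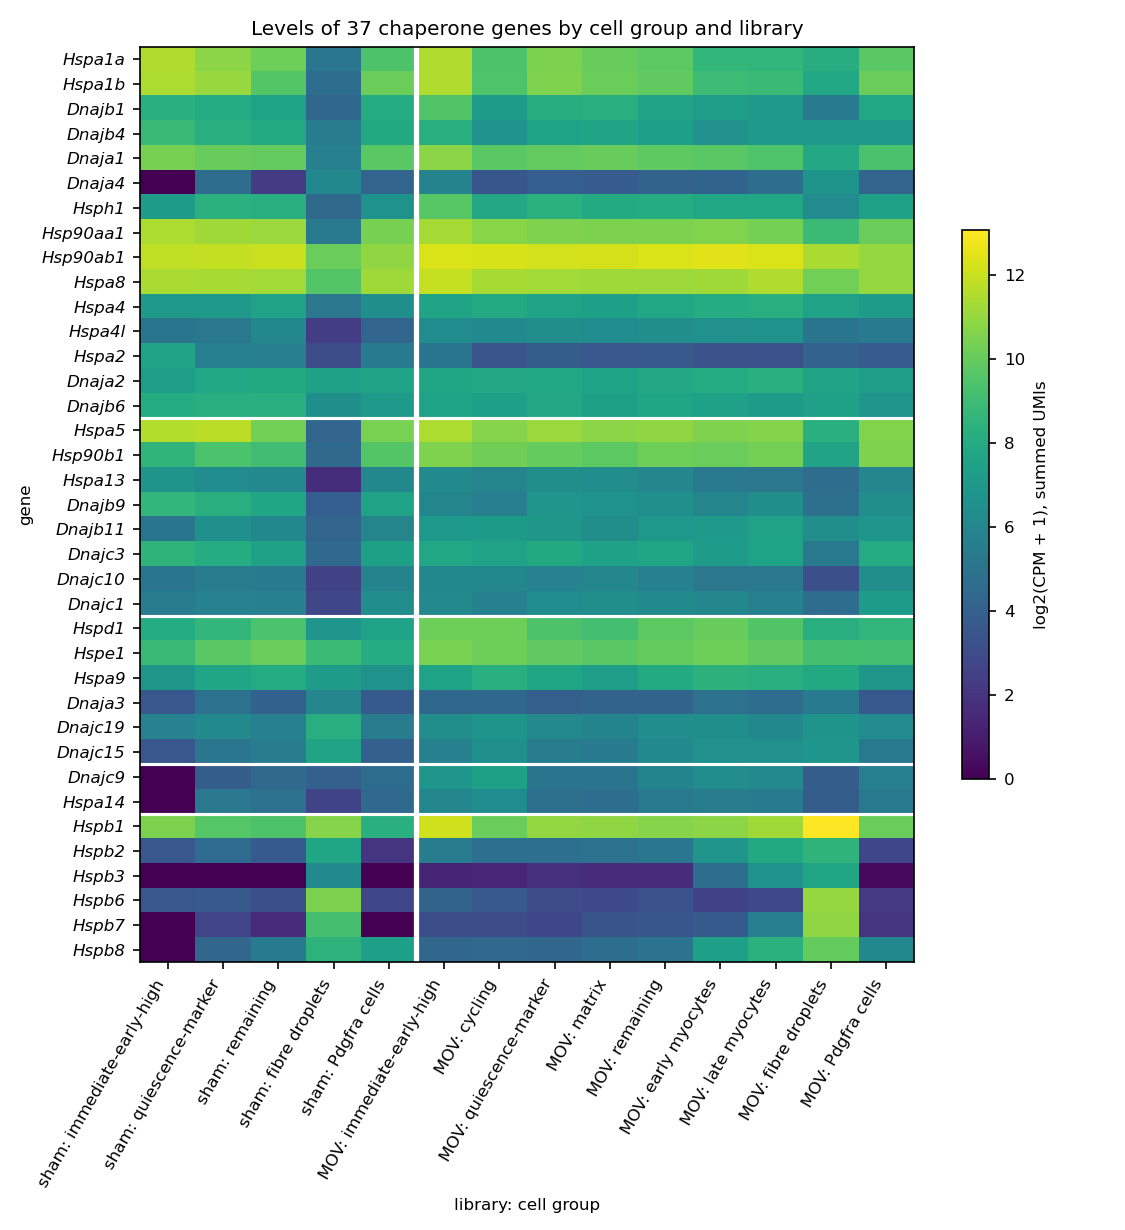
Levels of the chaperone genes named by role (rows: cytosolic, ER, mitochondrial, Dnajc9 with Hspa14, and small heat shock genes) as log2(CPM + 1) in the cell groups of each library (columns), with brighter colours for higher levels. Hspb1 in MOV fibre droplets is the brightest cell at 8650 CPM, Hspa1a and Hspa1b peak in the immediate-early-high columns, and Hspb6 and Hspb7 are brightest in fibre droplets.

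Chaperone genes took 2.11% of all UMIs in sham MuSCs and 2.25% in MOV MuSCs. Across the other groups the share ran from 0.904% in sham fibre droplets to 3.56% in MOV immediate-early-high MuSCs, with 1.40% and 1.58% in the Pdgfra cells of the 2 libraries. Hsp90ab1, the constitutive cytosolic Hsp90, was the most abundant in MuSCs, at 4030 CPM (3928 to 4135) in sham and 5025 CPM (5005 to 5046) in MOV. Hspa8, the constitutive Hsp70, stood at 2622 CPM (2539 to 2706) and 2597 CPM (2583 to 2612), which did not differ beyond counting error. The 10 genes of the heat-inducible list together stood at 7149 CPM in sham and 6726 CPM in MOV MuSCs. Over the other groups they ran from 2246 CPM in sham fibre droplets to 16637 CPM in MOV immediate-early-high MuSCs.

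The first comparison set immediate-early-high MuSCs against the other MuSCs of the same library, and the genes that formed the state include no chaperone. In MOV, Hspa1a (inducible Hsp70) stood at 2963 CPM (2897 to 3031) in immediate-early-high MuSCs, 1467 CPM in quiescence-marker, 1051 CPM in matrix, 894 CPM in remaining and 675 CPM in cycling MuSCs. Hspa1b followed the same order at 2958, 1493, 1114, 942 and 719 CPM. Neither gene had overlapping intervals between any of these 5 states. Against the other MOV MuSCs, the log2 ratio was 1.84 (1.80 to 1.87; 3.57-fold) for Hspa1a and 1.76 (1.73 to 1.80) for Hspa1b.

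Dnajb1, Hsph1 and Hspb1 were also higher in the same cells. Dnajb1, the J-domain protein that pairs with inducible Hsp70, stood at 737 CPM (704 to 771) against 145 to 293 CPM in the other 4 MOV states, a log2 ratio of 2.04 (1.97 to 2.12; 4.12-fold). Hsph1, the Hsp110 nucleotide exchange factor, stood at 830 CPM (795 to 866) against 233 to 323 CPM, a log2 ratio of 1.72 (1.65 to 1.79; 3.29-fold). Hspb1, the ubiquitous small heat shock protein, stood at 4449 CPM (4367 to 4531) against 1094 to 2015 CPM, a log2 ratio of 1.71 (1.68 to 1.74). These genes and both Hspa1 genes stayed at least 2-fold higher under every alternative tried. The J-domain genes Dnaja4, Dnajb4 and Dnaja1 had log2 ratios of 2.18, 1.20 and 1.05, and fell to 0.96, 0.71 and 0.96 when cells were thinned to 2000 UMIs. Hspa2, an Hsp70 best known from the testis, was 1.59 higher (1.24 to 1.93) at 32.6 CPM.

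In all, 12 of the 65 chaperone genes with at least 20 UMIs were 2-fold or more higher in MOV immediate-early-high MuSCs, where 8.8% of 13046 genes were, and 1 was lower, where 3.03% were. The lower gene was Dnajc28, with 1 UMI and a log2 ratio of -1.64 (-6.97 to 0.90), whose interval includes 0. The median log2 ratio was 0.19 over the chaperone genes and 0.12 over all genes. Of the lists, the heat-inducible one held most of the higher genes, with 8 of its 10 past 2-fold and a median of 1.72. Against this stood 1 of 7 constitutive cytosolic, 0 of 8 ER and 0 of 5 mitochondrial genes. The 8 include Hspa1l, which had 15 UMIs in these cells and is not usually counted as heat-inducible. They also include Dnajb4 and Dnaja1, which fell below 2-fold on thinning. Because the lists were chosen with earlier results of these data known, the contrast between them is descriptive only. Hspa8, Hsp90aa1 and Hspa5 were higher by less, with log2 ratios of 0.65, 0.65 and 0.69, and Hsp90ab1 differed by 0.04 (0.01 to 0.06). Hsp70 partners differed in both directions, with Hspa4, of the Hsp110 family, at -0.23 (-0.36 to -0.10), Dnajc2 at -0.49 and Bag1, a nucleotide exchange factor, at -0.35 (-0.50 to -0.20). Hspa9, the mitochondrial Hsp70, had a log2 ratio of -0.55 (-0.68 to -0.42), and Dnajc15, a J-domain protein of the mitochondrial import channel, of -0.67 (-0.94 to -0.42). Of 28 other chaperone pathway genes, 1 was past 2-fold: Bag3, the cochaperone that joins Hsp70 to small heat shock proteins, at 333 against 125 CPM (log2 ratio 1.41, 1.31 to 1.52).

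The sham library gave part of this pattern from 18 cells. Hspa1a stood at 2936 CPM (2597 to 3307) in immediate-early-high, 1791 CPM (1678 to 1909) in quiescence-marker and 1173 CPM (1080 to 1271) in remaining MuSCs. Its log2 ratio to the other sham MuSCs was 1.29 (1.10 to 1.47), that of Hspa1b 1.23 (1.03 to 1.42) and that of Hspb1 1.14 (0.86 to 1.40), but these fell to 0.86, 0.64 and 0.55 when thinned to 2000 UMIs. Hspa2 was higher by 2.30 (1.45 to 3.10) from 18 UMIs and stayed past 2-fold under every alternative that gave it a value (too few UMIs remained after thinning). Unlike in MOV, Hsph1 was not higher, at 152 CPM (82.9 to 254) from 14 UMIs with a log2 ratio of -0.82 (-1.71 to -0.06). Dnajb1, at 314 CPM (210 to 451), had a ratio of 0.69 (0.08 to 1.25).

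Mitochondrial chaperones were lower in these sham cells. The mitochondrial list stood at 910 CPM there, against 1573 CPM in quiescence-marker and 2098 CPM in remaining MuSCs. The other sham MuSCs also include 7 deep cycling cells, with 342401 of the 1458463 UMIs of all sham MuSCs. Their part in the ratios was not tested. Hspd1, the mitochondrial Hsp60, stood at 260 CPM from 24 UMIs with a log2 ratio of -1.49 (-2.14 to -0.91), its partner Hspe1 at 466 CPM with -1.24 (-1.71 to -0.80), and Hspa9 at 119 CPM with -1.21 (-2.22 to -0.35). The ratio of Hspd1 shrank to -0.63 when thinned, and those of Hspe1 and Hspa9 to -0.43 and -0.59 with all gates multiplied by 0.5. Over the 47 chaperone genes with enough UMIs, 6 were higher (background 11%) and 9 lower (background 19.1%), with a median of -0.18 against -0.09 for all genes. Both counts lie near their backgrounds. Of the other pathway genes, 0 of 23 were higher and 8 lower, led by Cacybp at -1.95 (-3.40 to -0.81) from 6 UMIs.

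The difference in inducible genes was graded over the immediate-early share in MOV. Over 5 bands of that share (162, 407, 657, 209 and 113 MuSCs, from under 500 to at least 5000 CPM), Hspa1a stood at 431, 572, 1031, 1649 and 2963 CPM. Dnajb1 stood at 105, 126, 194, 438 and 737 CPM, Hsph1 at 172, 210, 280, 429 and 830 CPM, and Hspb1 at 898, 1108, 1516, 2435 and 4449 CPM. Each of these genes was higher in every next band. Hsp90ab1 varied little, at 5278, 5115, 4835, 4946 and 5150 CPM, and Hspa9 was lower in each next band, from 318 to 189 CPM. The median depth went from 36599 UMIs in the lowest band to 19365 in the highest, and its part in the gradient was not tested.

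In sham the gradient was less regular. Hspa1a stood at 504, 523, 1278, 3116 and 2936 CPM over bands of 9, 16, 38, 32 and 18 cells, with its highest value in the band from 2500 to 5000 CPM. Hsph1 gave no such order, at 234, 159, 406, 286 and 152 CPM. Hspd1 was highest in the lowest band at 1450 CPM and stood at 260 CPM in the highest. Some of the bands hold few cells, and median depth went from 27066 to 5152 UMIs.

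**Figure D2:**
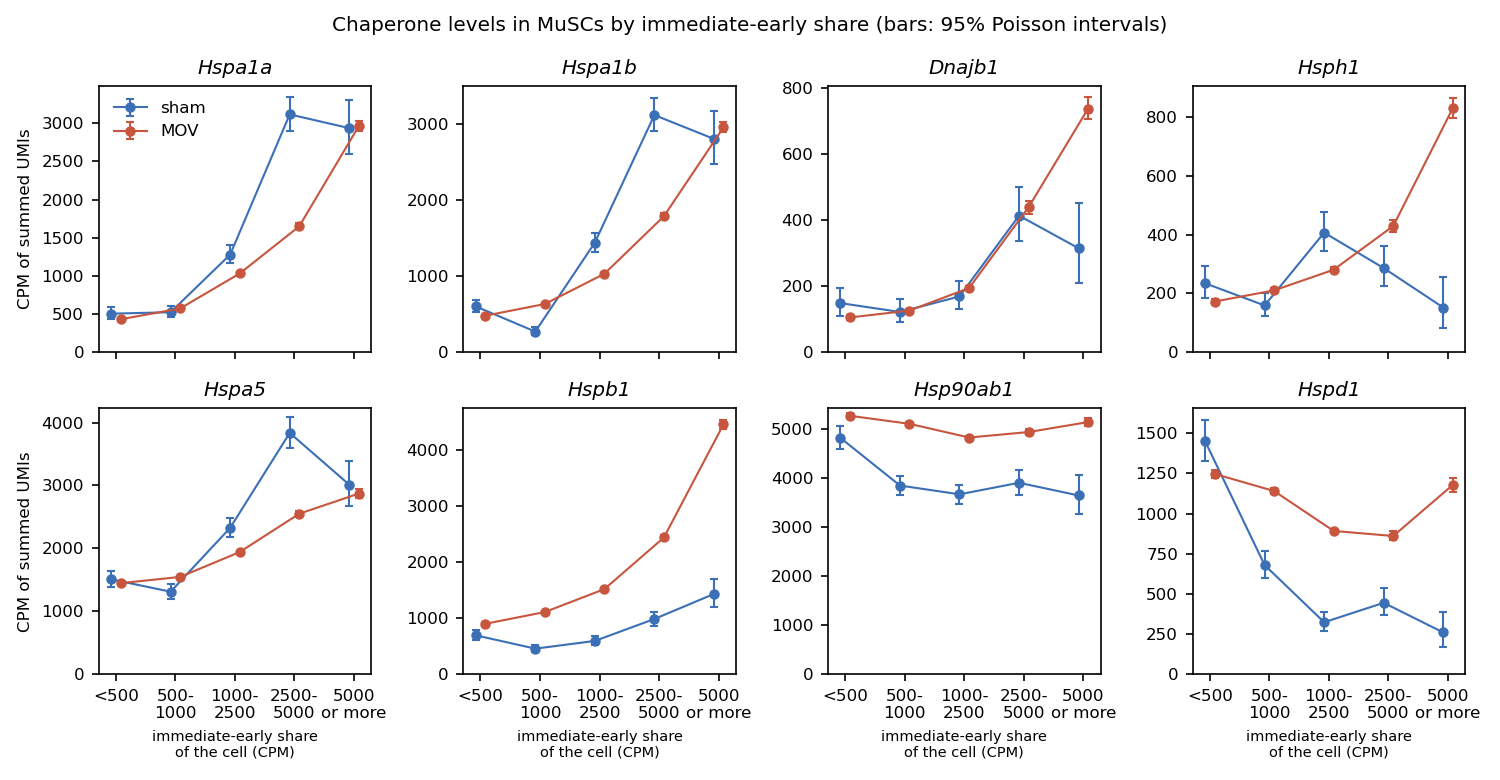
CPM of 8 chaperone genes (y axes, from 0) in MuSCs grouped by the CPM of 7 immediate-early genes in each cell (x axes), for sham (blue) and MOV (red), with 95% Poisson intervals as bars. In MOV, Hspa1a, Hspa1b, Dnajb1, Hsph1, Hspa5 and Hspb1 are higher in each next band while Hsp90ab1 stays between 4835 and 5278 CPM.

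Single cells varied widely within each state. The summed Hspa1a and Hspa1b level of a cell had a median of 5536 CPM in MOV immediate-early-high MuSCs, with 10th and 90th percentiles of 1073 and 15027 CPM. The median was 2891 CPM in quiescence-marker, 1261 CPM in cycling MuSCs and 669 CPM in early myocytes. In sham the median was 4263 CPM in immediate-early-high MuSCs and 0 in fibre droplets, of which 446 of 501 held no UMI of either gene. Hspa1a took between 37.6% and 60.4% of the UMIs of the pair across groups. With cells thinned to 2000 UMIs, 89.9% of MOV immediate-early-high MuSCs held a UMI of Hspa1a (82.7% to 94.9%; 96.5% unthinned), against 67.9% of cycling MuSCs, 46.5% of early myocytes and, as a group low in the gene, 3.93% of sham fibre droplets, whose median depths were 19365, 36950, 42248 and 3772 UMIs.

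**Figure D3:**
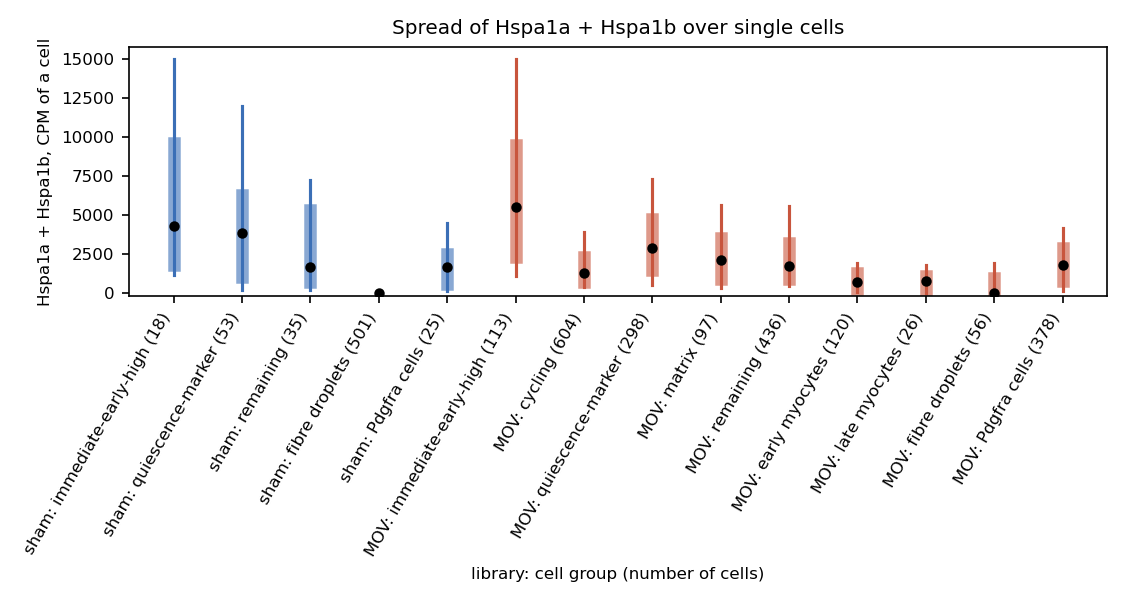
Hspa1a plus Hspa1b in single cells (y axis, CPM of a cell) by library and cell group (x axis, with the number of cells), where the dot is the median, the thick bar the central 50% of cells and the thin bar the 10th to 90th percentile. Medians run from 0 in fibre droplets to 5536 CPM in MOV immediate-early-high MuSCs, and the spread within a state exceeds the distance between most medians.

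The other MuSC states differed in few chaperone genes. In MOV cycling MuSCs, 2 of 65 were 2-fold or more higher (background 6.77%) and 3 lower (background 8.08%), and both medians were -0.08. Dnajc9 is a J-domain protein that also binds histones H3 and H4. It stood at 174 CPM (169 to 179) in cycling and 114 CPM in immediate-early-high MuSCs, which also carried cycling markers (1584 CPM). In remaining, matrix and quiescence-marker MuSCs Dnajc9 stood at 59.4, 32.2 and 31.3 CPM. Its log2 ratio to the other MOV MuSCs was 1.61 (1.52 to 1.71) in cycling cells. Hspa14, an Hsp70-like protein of the ribosome-associated complex, stood at 79.8 CPM in cycling and 27.6 CPM in quiescence-marker MuSCs (1.07, 0.95 to 1.19, for cycling). Its ribosomal J-domain partner Dnajc2 had a ratio of 0.96 (0.88 to 1.04) and Hspd1 of 0.51 (0.48 to 0.53).

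Hspa1a, Hspa1b, Dnajb1, Dnajb4, Dnaja1, Hsph1 and Hspb1 had their lowest levels among MOV MuSC states in cycling cells. The log2 ratio of Dnajb1 was -1.05 (-1.10 to -0.99) there, that of Hspa1a -0.97 and that of Hspb1 -0.96. The median of the inducible list was -0.91 and that of the mitochondrial list 0.42. Bag3 (-1.01) was the only one of 28 pathway genes past 2-fold in this comparison. Scaling by TMM factors brought Dnajb1 to -0.97, under 2-fold.

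Quiescence-marker MuSCs held more of the inducible pair and less of the cycling-linked genes. In MOV, Hspa1a was higher by 0.73 (0.69 to 0.77), Hspa1b by 0.69 and Dnajb9, an ER J-domain protein, by 0.86 (0.72 to 0.99), all under 2-fold. Dnajc9 was lower by 2.12 on the log2 scale (ratio -2.12, -2.36 to -1.89), and Hspa14 and Dnajc2 had ratios of -1.27 and -1.16. The 3 genes stood at 31.3, 27.6 and 63.0 CPM here and about as low in matrix MuSCs, at 32.2, 25.8 and 61.2 CPM. Cycling cells held 27270098 of the 46732551 UMIs of all MOV MuSCs, and their part in these ratios was not tested. In MOV 2 genes were higher (background 5.74%) and 7 lower (background 12%), and in sham 4 of 47 (background 6.9%) and 3 (background 12.7%). Sham quiescence-marker MuSCs held Hspa5, the ER Hsp70 also known as BiP, at 3351 CPM (3196 to 3511) against 1269 CPM (1172 to 1371) in remaining MuSCs, the widest gap of this gene among MuSC states. Its log2 ratio to the other sham MuSCs was 1.16 (1.06 to 1.27) and that of Hspa1b 1.32 (1.19 to 1.46), which thinning brought to 0.63 and 0.59. Of the other pathway genes 0 of 28 were past 2-fold in MOV and 1 of 23 (Bag5, higher) in sham.

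Matrix and remaining MuSCs had no chaperone gene at or above 2-fold in MOV (backgrounds 7.39% and 1.99%). In matrix MuSCs 6 were lower (background 10.2%), among them Dnajc9 (-2.00, -2.39 to -1.63), while Hspd1 (-0.88) and Hspa9 (-0.86) were lower by less than 2-fold and Dnajb1 and Dnajb4 higher by 0.51. In remaining MuSCs Dnajc9 alone was lower (-1.27; background 6.13%). In sham remaining MuSCs 1 of 47 genes was higher (background 2.82%) and 5 lower (background 7.7%). The higher one was Hspb8, at 1.94 (0.77 to 3.19) from 20 UMIs, a direction that turned to -2.46 when all gates were multiplied by 0.5. Pathway genes past 2-fold were 0 of 28 in both MOV states and 2 of 23 (Hsf2 and Stub1, lower) in sham remaining MuSCs.

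Fibre droplets showed a separate chaperone profile led by the small heat shock genes of muscle. Hspb6, also called Hsp20, stood at 1445 CPM (1403 to 1488) in sham and 2078 CPM (1933 to 2231) in MOV fibre droplets, against 10.3 and 10.6 CPM in MuSCs, a log2 ratio of 7.13 (6.41 to 7.97) and 7.62 (7.45 to 7.79). Hspb7, the cardiovascular small heat shock protein, stood at 597 and 1896 CPM against 4.11 and 7.66 CPM. Hspb8, the partner of Bag3, stood at 347 and 1013 CPM against 20.6 and 23.3 CPM. Hspb2 stood at 213 and 365 CPM against 15.1 and 29.4 CPM, and Hspb3, its complex partner, at 72.4 and 207 CPM against 0 UMIs and 1.84 CPM, so that its sham ratio is a bound (at least 35.2-fold higher, set by 3 UMIs over the sham MuSCs).

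Thinned to 2000 UMIs, 84.0% of sham fibre droplets (79.8% to 87.6%; 84.6% unthinned) and 1.82% of sham MuSCs held a UMI of Hspb6. In sham MuSCs the UMIs of Hspb6 and Hspb7 stood at 0.357 and 0.143 per UMI of the fibre gene Myh4, against 0.399 and 0.165 in fibre droplets. These MuSC values rest on only 15 Hspb6, 6 Hspb7 and 42 Myh4 UMIs. Hspb8 stood at 0.714 against 0.0956 and Hspb2 at 0.524 against 0.0587. In MOV, Hspb6 and Hspb7 stood at 2.87 and 2.08 in MuSCs against 3.95 and 3.61 in fibre droplets. The part of free fibre RNA in the MuSC levels was not tested.

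**Figure D4:**
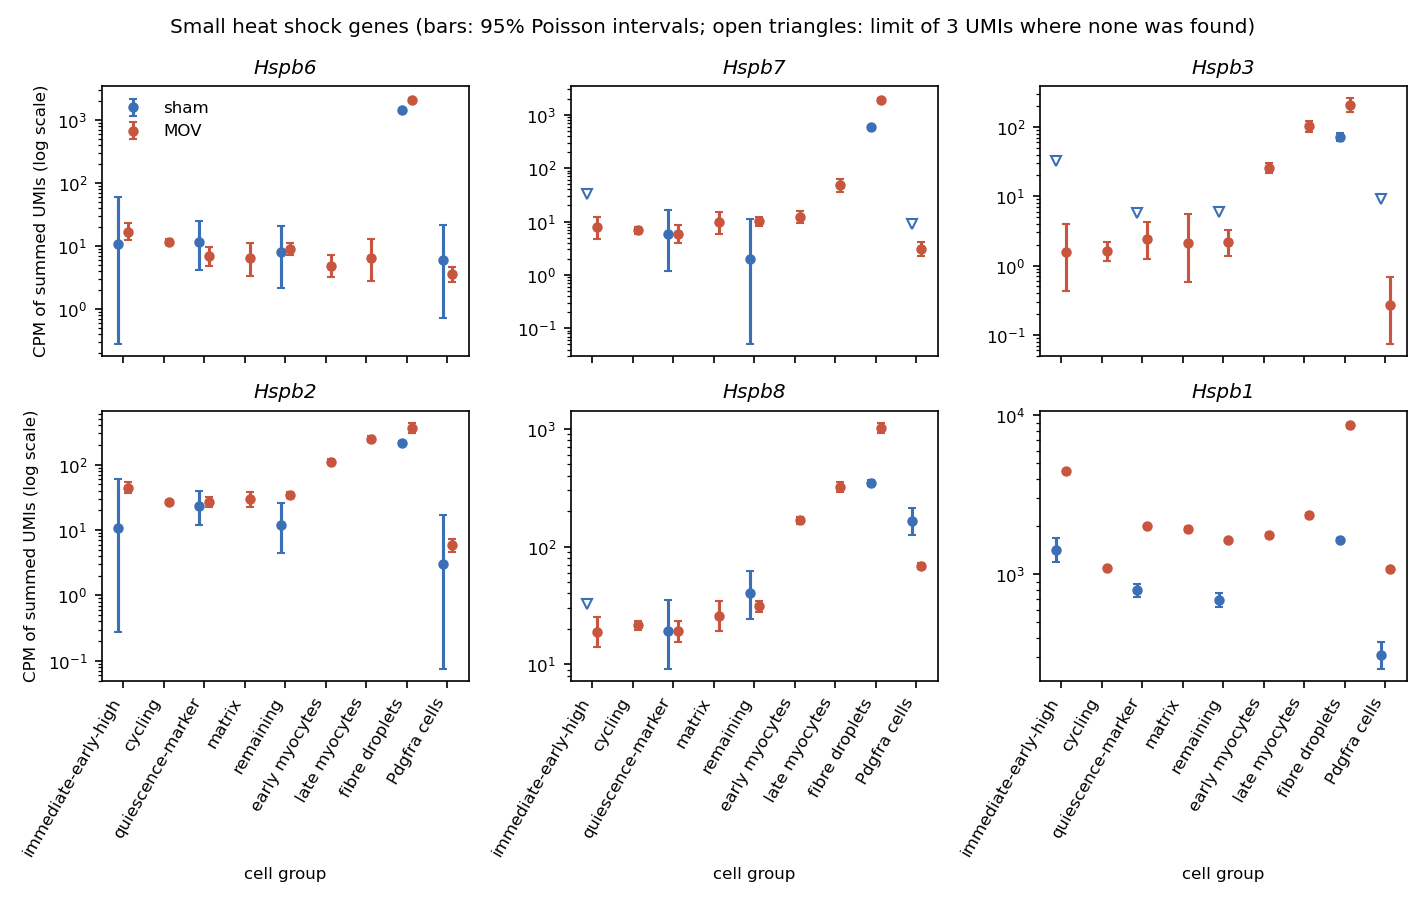
CPM of 6 small heat shock genes (y axes, log scale) by cell group (x axes) for sham (blue) and MOV (red), with 95% Poisson intervals as bars and open triangles at the level of 3 UMIs where none was found. Within each library Hspb6, Hspb7, Hspb3, Hspb2 and Hspb8 are highest in fibre droplets. In MOV, Hspb3, Hspb2 and Hspb8 of myocytes lie between MuSC and fibre levels. Late myocytes lie above sham fibre droplets for Hspb3 (103 against 72.4 CPM) and Hspb2 (247 against 213 CPM).

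Cytosolic and ER chaperones were lower in sham fibre droplets than in MuSCs, with 7 of 10 heat-inducible, 6 of 7 constitutive and 8 of 8 ER genes past 2-fold lower, where 51.1% of all genes were. The other genes of the heat-inducible list, Hspb1 (1.23), Hspb8 (4.07) and Hspa1l (at least 3.37, against 0 UMIs in MuSCs), were past 2-fold higher. Median log2 ratios were -3.46 for the heat-inducible, -1.84 for the constitutive and -3.64 for the ER list, against -1.09 for all genes. The constitutive genes thus lay nearest to all genes, and TMM factors (log2 factor -0.93) move every ratio here upward. Hspa5 stood at 18.3 CPM (13.9 to 23.8) against 2161 CPM in sham MuSCs, a log2 ratio of -6.88 (-7.28 to -6.50). Hsp90aa1, the inducible cytosolic Hsp90, stood at 37.6 against 2171 CPM (-5.85), Hspa1a at 34.7 against 1313 CPM (-5.24) and Hsp90b1, the ER Hsp90, at 21.9 against 675 CPM (-4.95). Mitochondrial J-domain genes ran the other way: Dnajc19 stood at 293 against 70.6 CPM (2.05, 1.76 to 2.36) and Dnajc15 at 198 against 46.6 CPM (2.08, 1.72 to 2.47), while Hspd1 was at -2.66.

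Over 60 chaperone genes, 18 were higher (background 21.5%) and 28 lower (background 51.1%) in sham fibre droplets, with a median of -0.82 against -1.09 for all genes. In MOV fibre droplets 18 of 65 were higher (background 14.1%) and 21 lower (background 26.3%), with medians of -0.32 and 0.00. TMM factors shift every ratio in the sham comparison by 0.93 upward and in the MOV comparison by 0.31, so small negative ratios there carry no direction. The small heat shock list had 6 of 7 measured genes higher and 0 lower in each library, with medians of 4.07 and 5.44. Among other pathway genes, Cryab, the most abundant small heat shock protein of muscle, stood at 5662 and 14083 CPM, and 4 of 28 were higher and 11 lower in sham, 5 and 6 in MOV.

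Myocytes shared part of the fibre pattern. Hspb3 stood at 25.6 CPM (21.6 to 30.2) in early and 103 CPM (85.9 to 123) in late myocytes, log2 ratios to MOV MuSCs of 3.80 (3.40 to 4.20) and 5.81 (5.40 to 6.22). Hspb8 stood at 167 and 323 CPM (2.84 and 3.79), and Hspb2 at 111 and 247 CPM (1.92 and 3.07). Hspb7 reached 47.8 CPM in late myocytes (2.64, 2.22 to 3.04), whereas Hspb6 was not higher, at 4.87 and 6.49 CPM against 10.6 CPM in MuSCs. Hspb3, Hspb2 and Hspb8 thus had higher levels in late than in early myocytes, with intervals that did not overlap.

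The inducible pair was lower in myocytes. Hspa1a stood at 409 CPM in early and 385 CPM in late myocytes against 946 CPM in MOV MuSCs (-1.21, -1.27 to -1.15, and -1.30, -1.43 to -1.17). Hspa1b stood at 494 and 459 CPM against 986 CPM, past 2-fold in late myocytes only (-1.10, -1.23 to -0.98). Early myocytes had 3 of 65 genes higher (background 7.24%) and 3 lower (background 14.7%), and late myocytes 6 (background 11.1%) and 3 (background 13.5%). The median of the small heat shock list was 0.68 in early and 2.64 in late myocytes, against -0.15 and -0.06 for all genes. Unc45b, the myosin chaperone of striated muscle, led the pathway genes at 34.6 and 98.1 CPM against 0.514 CPM in MuSCs (6.07 and 7.58), and 3 and 4 of 28 were past 2-fold higher.

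Pdgfra cells held fewer mitochondrial and constitutive cytosolic chaperone transcripts than MuSCs. Of 7 constitutive genes, 3 in sham and 1 in MOV were past 2-fold lower (medians -0.94 and -0.65). The heat-inducible list differed less, with medians of -0.19 and -0.31. In it, 2 of 9 genes in sham and 1 of 10 in MOV were past 2-fold lower, and 1 was higher in each. Hsp90ab1 stood at 1912 CPM (1766 to 2066) in sham and 2027 CPM (2004 to 2050) in MOV Pdgfra cells, log2 ratios of -1.08 and -1.31. Hspd1 stood at 189 and 384 CPM (-1.89 and -1.44), Hspe1 at 273 and 557 CPM (-1.95 and -1.01), and Hspa9 at 98.9 and 120 CPM (-1.42 and -1.18). Hspb8 was higher than in MuSCs in both libraries, at 165 CPM (124 to 215) and 68.1 CPM (63.9 to 72.4), log2 ratios of 3.00 (2.34 to 3.70) and 1.55 (1.42 to 1.67). Hspb11 was past 2-fold higher in sham only, at 1.03 from 14 UMIs with an interval that reached 0, and stood at 0.11 (-0.03 to 0.24) in MOV. Hspb2 stood at 3.00 CPM (1 UMI) and 5.81 CPM.

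Among ER genes in MOV Pdgfra cells, Dnajc1 was higher by 1.24 (1.16 to 1.32) and Hsp90b1 stood at 1474 CPM against 1193 CPM in MuSCs. In sham 3 of 48 chaperone genes were higher (background 18%) and 15 lower (background 20.8%), and in MOV 3 of 65 (background 19.2%) and 16 (background 15.7%). The medians were -0.46 and -0.42, against -0.11 and -0.10 for all genes. Serpinh1, the collagen chaperone of the ER, had ratios of 2.04 and 1.65, and Cryab of -2.56 and -1.44, among pathway genes of which 1 of 25 and 2 of 28 were higher and 9 and 6 lower.

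Between the libraries, Hspb1 was higher in MOV in every group compared. In all MuSCs it stood at 699 CPM (657 to 744) in sham and 1527 CPM (1516 to 1539) in MOV, a log2 ratio of 1.13 (1.04 to 1.22). It reached 1.64 in immediate-early-high, 1.35 in quiescence-marker and 1.26 in remaining MuSCs, 1.80 in Pdgfra cells and 2.40 in fibre droplets. For all MuSCs it fell to 0.95 when thinned, and for quiescence-marker MuSCs to 0.69 with a mitochondrial limit of 5%. Hsp90b1 was higher by 0.82 (0.73 to 0.92) in all MuSCs, 1.13 in remaining MuSCs and 0.96 in Pdgfra cells.

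Hspa2 and Dnajb9 were lower in MOV in the MuSC and Pdgfra groups. Hspa2 stood at 49.4 CPM (38.6 to 62.2) in sham and 12 CPM (11.03 to 13.04) in MOV MuSCs, a log2 ratio of -2.04 (-2.40 to -1.67), with -2.58, -1.87 and -2.07 in the 3 MuSC states and -1.66 in Pdgfra cells. Dnajb9 stood at 210 CPM (187 to 235) and 67.3 CPM (64.9 to 69.6), a ratio of -1.64 (-1.81 to -1.47), with -2.67, -1.38 and -1.12 in the states and -1.10 in Pdgfra cells. For all MuSCs both stayed past 2-fold lower under every alternative, and in Pdgfra cells thinning brought Dnajb9 to -0.88. Dnajb9 was the only one of 8 ER genes past 2-fold in all MuSCs, and the others lay on both sides of 0: Hspa5 at -0.23 (-0.28 to -0.18), Dnajc3 at -0.15 (-0.31 to 0.02), Hspa13 at -0.14, Dnajc1 at 0.26, Dnajc10 at 0.45, Dnajb11 at 0.55 (0.30 to 0.81) and Hsp90b1 at 0.82.

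The inducible pair was under 2-fold between the libraries in every MuSC group compared. Hspa1a had a log2 ratio of -0.47 (-0.54 to -0.41) in all MuSCs but 0.01 (-0.16 to 0.19) in immediate-early-high cells, and Hspa1b -0.40 and 0.08 (-0.10 to 0.26). Every ratio for all MuSCs pools the states in unlike shares. Cycling cells held 27270098 of 46732551 MuSC UMIs in MOV and 342401 of 1458463 in sham, and the part of this mix was not tested. In quiescence-marker MuSCs the ratios were -0.29 (-0.39 to -0.19) for Hspa1a and -0.50 (-0.59 to -0.41) for Hspa1b. In remaining MuSCs the genes of the pair went opposite ways, at -0.39 (-0.51 to -0.27) for Hspa1a and 0.29 (0.14 to 0.44) for Hspa1b, between which the division of UMIs is uncertain. In immediate-early-high cells Hsph1 (2.45, 1.70 to 3.33), Hspd1 (2.18, 1.60 to 2.82) and Hsp90b1 (2.01, 1.53 to 2.53) were higher in MOV. The MOV and sham immediate-early-high groups differ in size and depth, with 113 cells at a median of 19365 UMIs and 18 cells at 5151.5. They also differ in the cycling markers, at 1584 CPM in MOV and 10.8 CPM in sham, since the immediate-early limit was applied before the cycling one. The condition therefore cannot be told apart from library, depth and cycling content.

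In all MuSCs, quiescence-marker MuSCs and Pdgfra cells, the share of chaperone genes past 2-fold between the libraries lay below the background or close to it. In all MuSCs 4 of 65 were higher (background 11.5%) and 5 lower (background 9.35%), with medians of 0.12 and, for all genes, 0.08. In immediate-early-high cells 19 of 56 were higher (background 19.4%) and 4 lower (background 12.1%), but 7 and 1 after thinning. The numbers were 5 and 5 of 56 for quiescence-marker (backgrounds 17.6% and 8.33%), 12 and 3 of 62 for remaining MuSCs (12.4% and 7.83%), and 8 and 9 of 62 for Pdgfra cells (12.2% and 15.8%). Among pathway genes in all MuSCs, Serpinh1 was higher by 1.38 (1.23 to 1.53) and Bag3 lower at -1.11 (-1.26 to -0.97), with 2 of 28 past 2-fold in each direction. In the other groups the pathway genes past 2-fold numbered 10 higher and 0 lower of 27 in immediate-early-high, 2 and 0 of 27 in quiescence-marker and in remaining MuSCs, 3 and 2 of 27 in Pdgfra cells and 8 and 0 of 25 in fibre droplets.

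Fibre droplets had the most chaperone genes past 2-fold between the libraries. In MOV 25 of 56 chaperone genes were higher (background 25.7%) and 1 lower (background 12.8%), led by Hspa5 at 310 against 18.3 CPM (4.08, 3.61 to 4.57), Hsp90aa1 at 485 against 37.6 CPM (3.69) and Hspa1a at 278 against 34.7 CPM (3.00). Hspb7 (1.67, 1.54 to 1.79) and Hspb8 (1.55) were also higher. The lower gene was Dnajc19 (-1.43, -1.92 to -0.97). Without the 3 deepest MOV droplets the numbers were 15 and 1, Hspa5 stood at 3.00 and Hsp90aa1 at 2.41. Mean values over droplets gave 18 and 8, TMM factors 21 and 5, and thinning turned Hspa1b from 3.17 to -0.24. The MOV group held Myog at 738 CPM, against 1.93 CPM in sham, and the part of this myocyte transcript's source in the ratios was not tested.

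**Figure D5:**
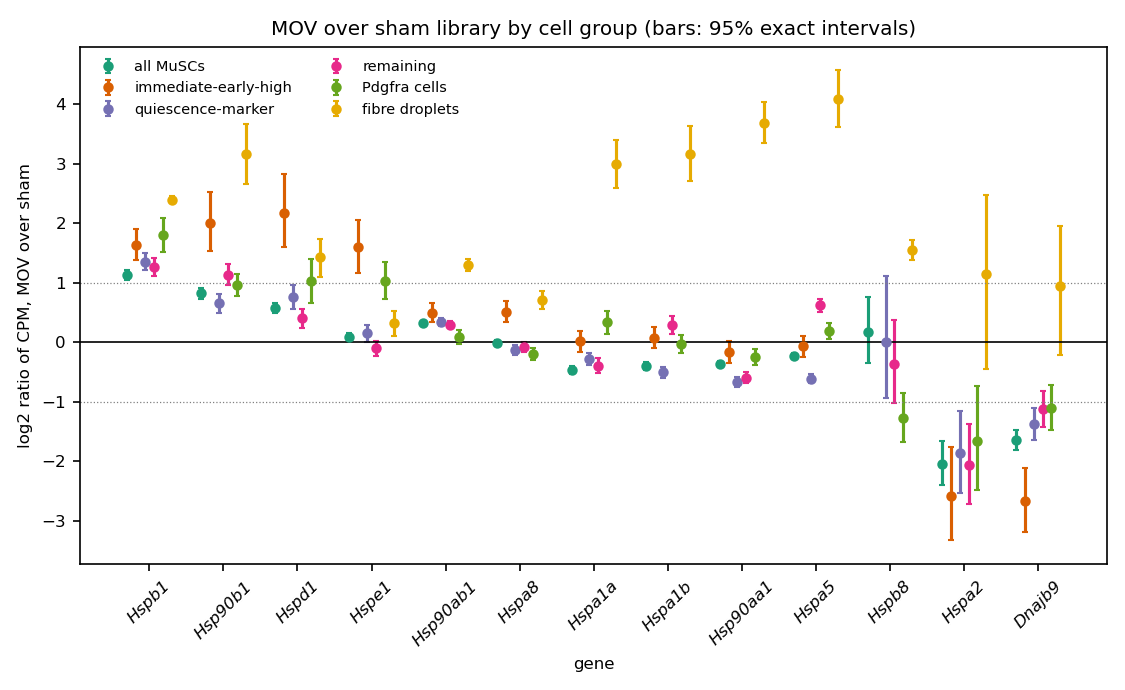
Log2 ratio of CPM, MOV over sham (y axis), for 13 chaperone genes (x axis) in 6 cell groups (colours), with 95% exact intervals as bars and dotted lines at 2-fold. Hspb1 lies above 0 in all 6 groups, Hspa2 and Dnajb9 lie below -1 in every group except fibre droplets, and fibre droplets reach 4.08 for Hspa5.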

How the data were processed

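The authors aligned 10x Genomics 3′ reads to mm10 with Cell Ranger 6.0.0, and the submitters' processing notes also name R 4.0.2 and Seurat 4.0.2. The deposited matrices hold raw UMI counts, whole numbers without normalization, for 1100 sham cells (7302661 UMIs) and 3854 MOV cells (88498487 UMIs). From these counts, barcodes with 10% or more mitochondrial UMIs were removed (738 and 3060 left), as were the top doublet scores at 0.8% per 1000 cells (4 and 75), with scanpy 1.11.5. No authors' cell annotation was used.

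Cells were assigned in order by marker CPM: another lineage (1000), fibre (5000), myocyte (1000 and at least 5 UMIs), Pdgfra group and MuSC (200), then within MuSCs immediate-early (5000), cycling (500), quiescence (200) and matrix (300). Near the immediate-early limit, 41 MOV and 10 sham cells lay between 0.8 times it and it. The MOV quiescence limit was more crowded, with 100 cells in that range below it and 115 of the 298 members under 250 CPM. UMIs were summed per group and compared over all genes with at least 20 UMIs in both groups together, 2-fold counting as past the threshold. A group at 0 was set to 3 UMIs, a ratio so bounded counted only on the side it can bear on, and otherwise entered medians as 0. The gene groups, lists and the rule for named genes (the role lists, the 10 most abundant genes, and up to 5 per direction by interval bound) were chosen with earlier results of these data known. Named beyond this rule after values were seen were Dnajc28 and Dnajc15. Levels carry Poisson intervals, ratios conditional intervals and shares Clopper-Pearson intervals. The ratio was tested on simulated data. TMM factors came from edgeR 4.0.16 (R 4.3.3), and the rest from Python 3.11.15, numpy 2.4.6, scipy 1.17.1 and pandas 2.3.3, with plots by matplotlib 3.10.9. Alternatives were 14 planned and 2 added after the data had been seen (shallower copies of shared barcodes left out, and the 3 deepest MOV fibre droplets left out). Gene positions are from GENCODE M21 (GRCm38) and upstream windows from RefSeq (GRCm38.p6), which held 58 of the 73 genes.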

Additional observations from a re-analysis of the deposited data

Results flagged for a closer look

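Hspb8 moved in opposite directions between the libraries in 2 groups. In fibre droplets its log2 ratio, MOV over sham, was 1.55 (1.37 to 1.72; 372 and 1077 UMIs). In Pdgfra cells it was -1.28 (-1.67 to -0.86; 1008 and 55 UMIs), and -0.31 when cells were thinned to 2000 UMIs. The difference between the groups was not tested, since each library is a single sample.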

How the results depend on the processing

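No paired analysis was possible because each group has 1 library and the labels give no pairing. Over 14 planned and 2 added alternatives, 253 of 300 numbers of chaperone genes past 2-fold stayed within 1.5 times the value reported. Of 590 recomputed log2 ratios of 40 named pairs of gene and comparison, 480 stayed within the 95% interval of the value reported, 109 moved outside it, and 1 value past 2-fold reversed: Hspb8 in sham remaining MuSCs was -2.46 with gates multiplied by 0.5. A changed minimum (1 or 50 UMIs) or threshold (1.5-fold) leaves each ratio itself as it was. Under these settings a ratio could not move or reverse, so their values for named pairs are all among the 480. They also gave 299, 269 and 299 of the 4351 ratios past 2-fold over all settings. Of these 4351 ratios, 25 reversed. Means over cells gave 9 of the 25, each change of the gates 5, thinning 2 and the mitochondrial limit of 5% also 2. The causes were not tested.

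With a mitochondrial limit of 5% the number for MOV cycling MuSCs went from 5 to 8, as it did with a lower immediate-early limit. With gates multiplied by 0.5 the numbers were 10 for sham remaining, 8 for MOV immediate-early-high, 10 for MOV cycling, 5 for MOV quiescence-marker and 3 for MOV remaining MuSCs. With gates multiplied by 2 they were 12 for sham quiescence-marker, 3 for MOV cycling and 11 for MOV matrix MuSCs, 17 for late myocytes and 15 for fibre droplets between libraries.

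Means over cells gave 2 for MOV remaining MuSCs, 10 for early and 20 for late myocytes, and between libraries 17 for all MuSCs and 25 for remaining MuSCs. Thinning to 2000 UMIs gave 4, 2 and 2 for sham immediate-early-high, quiescence-marker and remaining MuSCs, 5 and 4 for MOV quiescence-marker and remaining MuSCs, 10 for sham Pdgfra cells and 15 for late myocytes. Between libraries it gave 8 for immediate-early-high, 5 for quiescence-marker MuSCs and 15 for fibre droplets. A minimum of 1 UMI gave 14 and 12 for sham quiescence-marker and remaining MuSCs, and a minimum of 50 gave 3 for the latter. Without the 3 deepest MOV fibre droplets the number between libraries was 16.

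At 1.5-fold the numbers were 28, 15 and 14 for sham immediate-early-high, quiescence-marker and remaining MuSCs, and 21, 16, 17, 15 and 3 for MOV immediate-early-high, cycling, quiescence-marker, matrix and remaining MuSCs. They were 20 for early and 23 for late myocytes and 30 for MOV Pdgfra cells, and between libraries 19, 22, 27, 42 and 36 for all, quiescence-marker and remaining MuSCs, fibre droplets and Pdgfra cells.

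TMM factors moved all log2 ratios by over 0.1 in 10 comparisons, most in sham fibre droplets (factor -0.93), MOV fibre droplets (-0.31) and fibre droplets between libraries (0.29), and turned the split of higher and lower genes from 6 and 9 to 8 and 7 in sham immediate-early-high and from 2 and 3 to 3 and 2 in MOV cycling MuSCs. Means over cells turned 18 and 21 to 16 and 36 in MOV fibre droplets. Thinning turned 12 and 1 to 8 and 4 in MOV immediate-early-high MuSCs. In the sham library 18 immediate-early-high and 25 Pdgfra cells limit what the depth can show.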
